A study of Homo sapiens with 12 samples.

Results

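Early target genes of SMAD signalling were examined for H3K4me3 in BON1 cells, an established human pancreatic neuroendocrine tumor line. The 9 genes were chosen by name as common response genes of TGF-beta and BMP: CCN2, TGFBI, ID1, ID2, ID3, PMEPA1, JUNB, BAMBI and TGIF1. All 9 were matched by symbol among 20136 annotated protein-coding genes. H3K4me3 was profiled by CUT&RUN, which uses a nuclease tethered to an antibody to cut out the DNA around a mark for sequencing. The lines compared were BON1/TGL/pQ, called control here, and BON1/TGL/HA-Bcl-xL, which overexpresses the survival protein Bcl-xL with an HA tag, each profiled from 500000 cells per condition. Both were kept in medium with serum and puromycin, and no ligand treatment is named in the labels. The background came from reactions with rabbit anti-mouse IgG in place of the H3K4me3 antibody. The comparison addresses whether H3K4me3 differed between these lines. Each condition is a single line, so Bcl-xL overexpression cannot be told apart from other differences between the lines.

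The labels gave 3 replicates for each of 4 combinations of line and antibody. Peak lists of 11 libraries were used, 5 of H3K4me3 and 6 of IgG. The H3K4me3 libraries are called control 1, 2 and 3 and HA-Bcl-xL 2 and 3 after their replicate numbers, and the first replicate of HA-Bcl-xL H3K4me3 was not analysed here. No label says that the replicates were separate cultures, so the p-values measure only the spread between these libraries. With 2 libraries against 3, an exact rank-sum test that counts both directions cannot give a p below 0.2, and no exact test was used.

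TGF-beta and BMP ligands bind pairs of serine/threonine kinase receptors, which phosphorylate SMAD proteins. The activated SMADs join SMAD4, enter the nucleus and bind DNA with partner factors, and the genes described here are among those that commonly respond first. H3K4me3 is laid down around the start sites of active or poised genes, mostly on the nucleosomes that flank the start. A peak is not a measure of transcript level.

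The sequences below show where the recurrent peaks lay at the marked promoters, with the CCN2 promoter as an unmarked one. Each promoter line holds the 250 bases before the most 5′ annotated end, 5′ to 3′ on the gene's strand, in GRCh37. They lie at chr20:30192836-30193085 (ID1, plus strand), chr1:23885993-23886242 (ID3, minus strand), chr19:12902050-12902299 (JUNB, plus strand) and chr6:132272513-132272762 (CCN2, minus strand). The TGIF1 line is part of an intronic site with a peak in every H3K4me3 library, chr18:3451486-3451590 on the plus strand. In ID1, ID3, JUNB and TGIF1, capitals mark the bases under a peak in every H3K4me3 library that had a peak at the site: all 5 libraries for ID1, ID3 and TGIF1, and 4 for JUNB. In CCN2, which had no peak, capitals mark matches to GGAATG, the motif of TEAD factors.
ID1: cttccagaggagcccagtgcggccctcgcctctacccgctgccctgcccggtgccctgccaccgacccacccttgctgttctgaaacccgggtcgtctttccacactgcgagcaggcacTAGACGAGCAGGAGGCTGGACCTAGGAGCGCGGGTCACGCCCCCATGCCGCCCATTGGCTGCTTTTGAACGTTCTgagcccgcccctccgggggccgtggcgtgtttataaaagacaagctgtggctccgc
ID3: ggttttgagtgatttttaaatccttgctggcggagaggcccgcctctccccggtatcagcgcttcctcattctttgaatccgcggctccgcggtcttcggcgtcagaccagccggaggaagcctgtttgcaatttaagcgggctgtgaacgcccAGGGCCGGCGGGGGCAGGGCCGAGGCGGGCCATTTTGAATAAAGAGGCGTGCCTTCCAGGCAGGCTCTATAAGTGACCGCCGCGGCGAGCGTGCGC
JUNB: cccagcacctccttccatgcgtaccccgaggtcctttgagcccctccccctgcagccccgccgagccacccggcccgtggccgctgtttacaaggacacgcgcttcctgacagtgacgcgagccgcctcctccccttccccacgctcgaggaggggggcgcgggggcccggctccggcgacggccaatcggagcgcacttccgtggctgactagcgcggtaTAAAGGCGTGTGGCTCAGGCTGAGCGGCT
CCN2: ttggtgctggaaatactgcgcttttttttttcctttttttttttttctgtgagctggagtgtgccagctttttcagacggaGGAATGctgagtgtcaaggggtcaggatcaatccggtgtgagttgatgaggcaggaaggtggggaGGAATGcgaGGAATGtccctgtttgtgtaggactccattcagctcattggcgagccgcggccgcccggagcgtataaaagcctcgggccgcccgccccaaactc
TGIF1 intronic site: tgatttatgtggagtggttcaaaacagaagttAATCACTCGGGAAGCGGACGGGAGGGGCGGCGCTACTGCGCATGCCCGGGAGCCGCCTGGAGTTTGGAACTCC

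The capitals lie wholly upstream of the start in ID1 and run up to the start in ID3 and JUNB, where the shared bases go on into the gene. In ID1 all 75 bases shared by the 5 peaks lay upstream of the 5′ end. In ID3, 96 of the 109 shared bases did, and in JUNB 29 of 68.

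Promoter peaks, those lying no more than 1 kb from the most 5′ annotated end, were present for ID1 and ID3 in all 5 H3K4me3 libraries. JUNB had one in 4 libraries, and ID2, BAMBI, TGIF1, PMEPA1, CCN2 and TGFBI had none. Over all protein-coding genes, 21.3% had such a peak in all 5 libraries and 48.2% in at least 1. The members' counts, 2 of 9 and 3 of 9, were thus close to or below the genome-wide shares. The number of members with a promoter peak was 2.67 ± 0.577 per control library (SD, n = 3) and 3.0 ± 0.0 per HA-Bcl-xL library (SD, n = 2). The difference of 0.333 was smaller than the pooled SD of 0.471. The same 3 members had it in 4 libraries, and control 3 lacked that of JUNB. The share of all genes with a peak was 33.6 ± 6.20% per control library (SD, n = 3) and 37.3 ± 1.16% per HA-Bcl-xL library (SD, n = 2). With the same number of peaks from each list, the mean was 2.67 members per control library and 2.0 per HA-Bcl-xL library, the opposite order.

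For no member did the promoter peak separate the lines completely. Over all genes, 0.844% had one in both HA-Bcl-xL libraries with none in control, and 0.248% in all 3 control libraries with none in HA-Bcl-xL. In the 6 IgG libraries no member had a peak as near as 10 kb to the 5′ end, against 4.47% of all genes with one in at least 1.

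**Figure D1:**
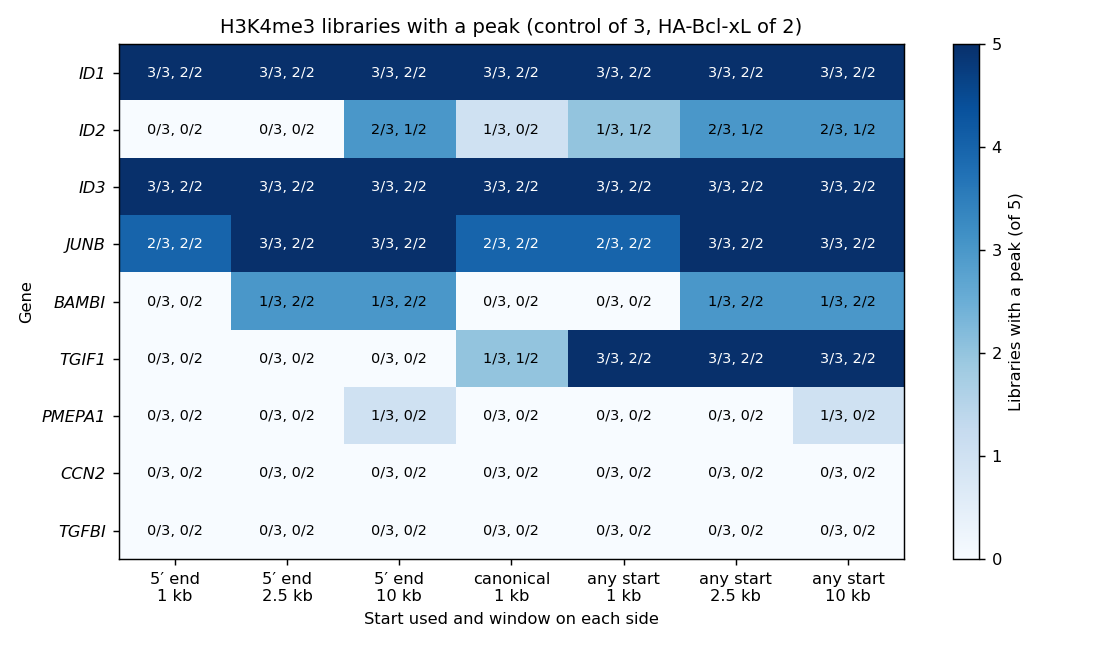
Number of H3K4me3 libraries with a peak for each gene (rows), by the start and window used (columns), given in each cell as control libraries of 3 and HA-Bcl-xL libraries of 2, with darker blue for more libraries. ID1 and ID3 are at 5 libraries in every column, CCN2 and TGFBI at 0 in every column, and TGIF1 goes from 0 to 5 when any transcript start is counted.

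The lists differed in length. The H3K4me3 lists held 17711, 12159 and 10247 peaks in control 1 to 3 and 16379 and 15497 in HA-Bcl-xL 2 and 3. Control 3 had the shortest list and the lowest background floor, 0.0478 against 0.0659 to 0.0705 fragments in the other H3K4me3 libraries. The IgG lists held 1674 to 2113 peaks in control and 244 to 268 in HA-Bcl-xL cells. Against 28.2 to 40.4% of all genes per H3K4me3 library, 4 to 7 of 12 neuroendocrine markers had a promoter peak. In control 2 and HA-Bcl-xL 3 the marker counts, 4 and 5, were near the shares of all genes, 32.4% and 36.5%. Of the constitutive genes ACTB and GAPDH, 0 to 1 had one per library. Within 1 kb of the canonical start, 1 to 2 of them had a peak per library, and ACTB had one there in all 5. CHGB, NEUROD1, SCG2 and SCG3 had a promoter peak in all 5 libraries. Within 1 kb of the 5′ end, 0 of 5 mesenchymal, 0 of 3 matched endothelial and 0 of 4 immune markers had a peak in any H3K4me3 library, and 1 of 5 acinar and duct markers had one, in 1 library. TPH1, the serotonin synthesis enzyme, had one in HA-Bcl-xL 2 and 3 and in no control library, a pattern of 0.844% of all genes. It was named after its values were seen. The neuroendocrine markers ENO2, INSM1 and SSTR2 were among those with none.

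The inhibitors of DNA binding, ID1, ID2 and ID3, are helix-loop-helix proteins without a DNA-binding domain. They block basic helix-loop-helix factors and are classical targets of BMP signalling. ID1 (chromosome 20, 30193086 to 30194318, plus strand) had a peak just upstream of the start in every H3K4me3 library. Fragment numbers at a summit were solved from the authors' fold and p for that peak. The ID1 promoter summit held 34, 22 and 24 fragments in control 1 to 3 and 23 and 20 in HA-Bcl-xL 2 and 3. Relative to the 5′ end, that summit lay at -87, -101 and -57 bp in control and at -108 and -130 bp in HA-Bcl-xL libraries. In each library this peak ranked high in its own list, at the 95.6, 88.7 and 95.5 percentile of the authors' -log10 p in control and at 88.9 and 78.5 in HA-Bcl-xL libraries. Fragment numbers are not scaled to depth, and ranks from lists of different length show no change between the lines.

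Part of the printed ID1 promoter is also an exon of the long noncoding gene ENSG00000289875 on the other strand. That gene starts just upstream of the shared bases and runs away from ID1, and the mark has no strand, so the peak cannot be assigned to ID1 alone. A further ID1 site, at 30194045 to 30194380 over the 3′ UTR and gene end, had a peak in all 5 libraries with summits 1003 to 1225 bp downstream of the start and 12 to 17 fragments. A site beyond the gene end, at 30195088 to 30195223, had a peak in control 2 and HA-Bcl-xL 3, with 22 and 23 fragments. Control 1 alone had peaks at -865 bp, with 12 fragments, and at 7820 bp, with 4.

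ID3 lies at 23884417 to 23885992 of chromosome 1 on the minus strand, and of the 3 promoter summits its own varied least in position. It lay at -34, -37 and -38 bp from the start in control and at -35 and -29 bp in HA-Bcl-xL libraries. The lowest and highest of these were 9 bp apart, against 73 bp for the ID1 and 71 bp for the JUNB promoter summit. The summit held 18, 21 and 13 fragments in control and 18 and 12 in HA-Bcl-xL libraries, and the groups overlapped. A site over the 3′ UTR and gene end, at 23884335 to 23884724, was also present in all 5 libraries, with 11 to 21 fragments. HA-Bcl-xL 3 alone had a peak in the first coding stretch, 243 bp into the gene, with 12 fragments. In that library the ID3 promoter peak ranked at the 25.6 percentile, and it was lost both at a -log10 q of at least 5 and with equal list lengths, which left ID3 marked in 3 of the 3 control libraries and 1 of the 2 HA-Bcl-xL libraries.

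ID2 (chromosome 2, 8818975 to 8824591, plus strand) had no peak within 2.5 kb of its most 5′ end in any library. Its canonical transcript, the annotation's reference isoform, starts 3211 bp further down, at 8822186. Around that start, control 1 had peaks with summits 569, 1621 and 1926 bp downstream. Control 2 had 1 peak, 2178 bp downstream, and HA-Bcl-xL 2 had peaks 1570 and 1844 bp downstream. Control 3 and HA-Bcl-xL 3 had none within 10 kb. The gene was thus marked in 2 of the 3 control libraries and 1 of the 2 HA-Bcl-xL libraries, over its intron and 3′ UTR, and no single site recurred in more than 2. The long noncoding gene ID2-AS1 on the other strand covers the most 5′ end of ID2, and its own start lies just upstream of the canonical ID2 start.

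Local background was high at the ID2 peaks. This background, the fragment number expected without a peak that the authors' fold and p imply, was 2.281 to 3.182 fragments at the 6 ID2 peaks, 32.4 to 48.3 times the floor of the list. Over all peaks, the median local background of a list was 0.444 to 0.692. At the peaks of ID1 it was 0.219 to 2.221, at those of ID3 1.223 to 1.76, at those of JUNB 0.417 to 2.152, at those of BAMBI 1.004 to 1.091 and at those of TGIF1 1.492 to 2.755. ID2 peaks held 14 to 28 fragments at the summit, and ID3 peaks 11 to 21. The ID2 peaks ranked between the 7.2 and the 92.8 percentile of their lists. A missing peak at ID2 is not a measure of a missing mark, and the part of the local background in it was not tested.

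**Figure D2:**
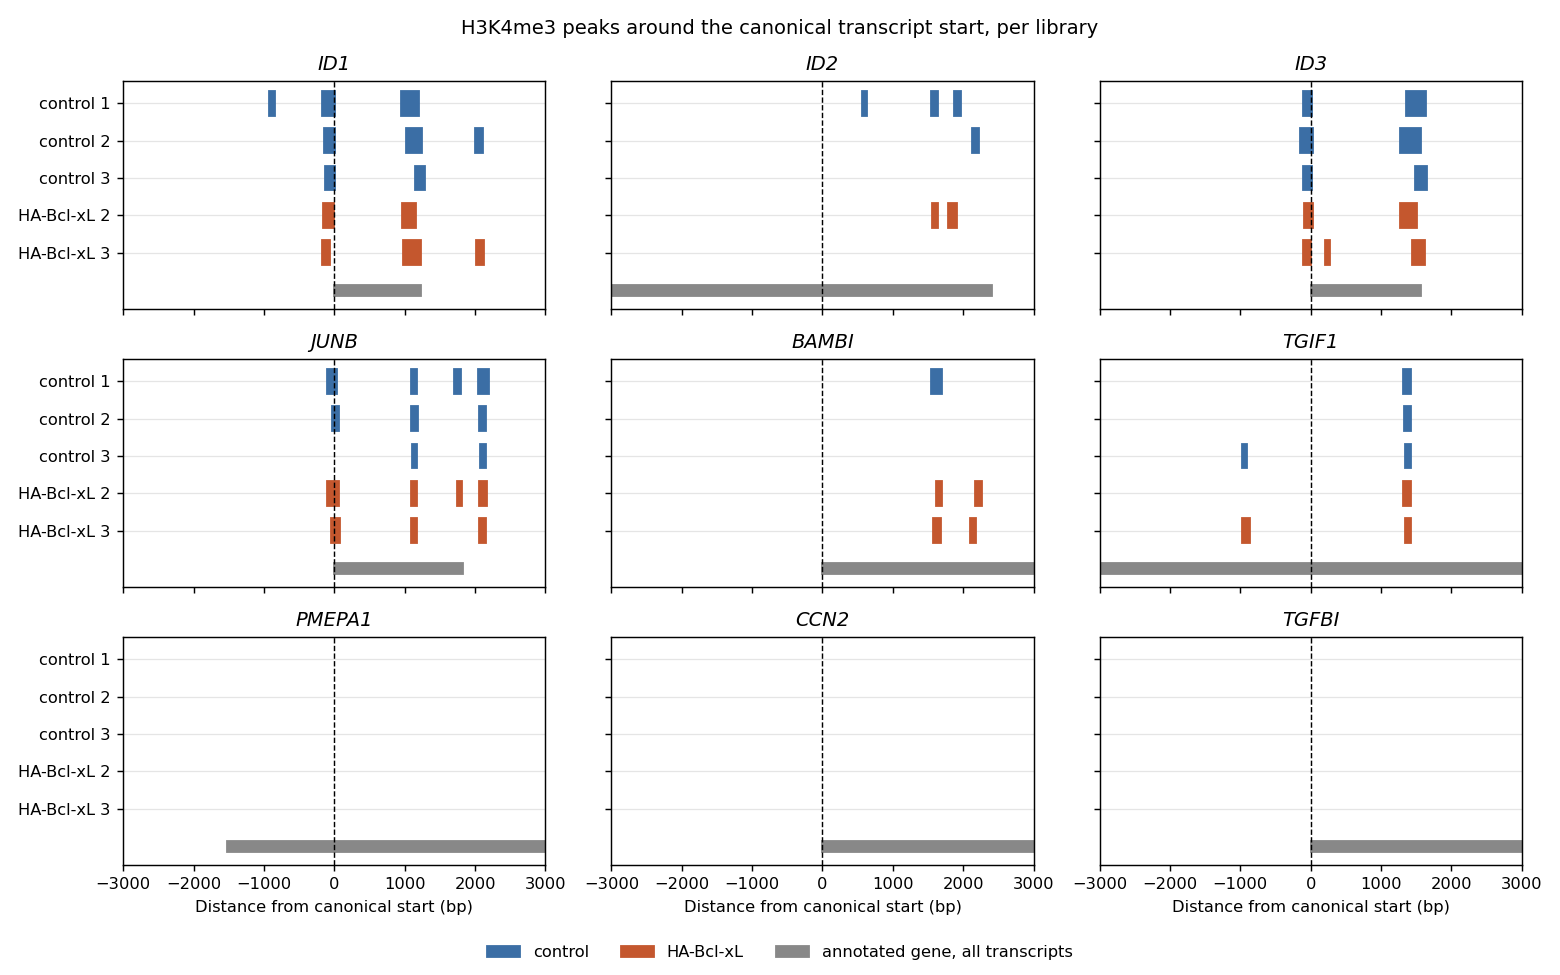
H3K4me3 peaks as boxes in the 5 libraries (rows; control in blue, HA-Bcl-xL in orange) against distance from the canonical transcript start in bp, with the annotated gene in grey. ID1, ID3 and JUNB show boxes at the start and again downstream, ID2 and BAMBI only downstream, and PMEPA1, CCN2 and TGFBI none within the 3 kb drawn on each side.

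JUNB encodes a subunit of the AP-1 transcription factor and is an immediate early gene with a single exon. The gene lies at 12902300 to 12904129 of chromosome 19 on the plus strand, within the annotated span of HOOK2 on the other strand. Its promoter peak was present in control 1 and 2, with 20 and 23 fragments at the summit, and in HA-Bcl-xL 2 and 3, with 13 and 20. Its summit lay at -33 and -9 bp from the start in those control libraries and at -13 and 38 bp in HA-Bcl-xL libraries. No peak was called there in control 3. A larger share of HA-Bcl-xL than of control libraries thus had the JUNB promoter peak, a pattern found in 17.2% of all genes. At a -log10 q of at least 5 the order turned, with 2 of the 3 control libraries and 1 of the 2 HA-Bcl-xL libraries. Within 2.5 kb of the 5′ end JUNB had a peak in all 5 libraries, as had 25.6% of all genes.

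Further JUNB sites recurred. A site in the coding exon, at 12903387 to 12903486, and a site beyond the gene end, at 12904348 to 12904497, had a peak in all 5 libraries. Summits in the coding exon lay 1115 to 1153 bp from the start, with 13 to 18 fragments, and those beyond the gene end 2076 to 2116 bp, with 12 to 24. A site in the 3′ UTR, at 12903997 to 12904112, had a peak in control 1 and HA-Bcl-xL 2. Peaks 9841 to 9881 bp away in control 1 and 3 and HA-Bcl-xL 2 lay inside PRDX2 and cannot be assigned to JUNB.

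BAMBI encodes a pseudoreceptor that lacks a kinase domain and dampens TGF-beta and BMP signalling. It lies at 28966439 to 28971861 of chromosome 10 on the plus strand, and had no peak within 1 kb of its start. Inside its intron, a site at 28967995 to 28968154 had a peak in control 1, with 13 fragments, and in HA-Bcl-xL 2 and 3, with 9 and 11. A further intronic site, at 28968547 to 28968716, was called in HA-Bcl-xL 2 and 3, with 9 and 12 fragments, and not in control. Among 30435 merged H3K4me3 regions, 2.14% had this pattern. The BAMBI peaks in HA-Bcl-xL 2 and 3 ranked at or below the 46.8 percentile of their lists, and the peak in control 1 at the 49.3 percentile.

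Bases under peaks within 2.5 kb of the BAMBI 5′ end were 160, 0 and 0 in control 1 to 3 and 187 and 189 in HA-Bcl-xL 2 and 3. Both HA-Bcl-xL values lay above all control values. A larger share of HA-Bcl-xL than of control libraries had a BAMBI peak in this window, a pattern found in 18.0% of all genes. The control libraries without a peak were those with the shortest lists, and the part of list length in this was not tested. With equal list lengths BAMBI had a peak in 1 of the 3 control libraries and 1 of the 2 HA-Bcl-xL libraries. With no peak in 2 control libraries, BAMBI was not among the genes with a peak in every library, whose bases were compared between the lines. It entered only an alternative limma fit, of genes with a peak in at least 3 libraries on log2 of bases plus 50, where its value was 1.40 (SE 0.537, Benjamini-Hochberg adjusted p = 0.989) and 0.0% of 8282 genes passed. BAMBI met that filter through both of its HA-Bcl-xL libraries and 1 control library, and its other control values are set by the added 50 bases, so this value is a description.

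TGIF1 encodes a homeodomain corepressor that binds SMAD2 and SMAD3. Its annotation runs from 3411606 to 3459976 of chromosome 18 on the plus strand, and its canonical transcript starts 38564 bp below the most 5′ end. No library had a peak within 10 kb of that 5′ end. A site at 3451486 to 3451599, in the intron of the canonical transcript, had a peak in all 5 libraries. Its summit held 35, 19 and 18 fragments in control 1 to 3 and 25 and 21 in HA-Bcl-xL 2 and 3. It lay 1351 to 1380 bp below the canonical start and ranked at the 73.0 to 94.3 percentile. A shorter TGIF1 transcript starts at 3451591, and relative to that start the summits lay at -70 to -41 bp. TGIF1 thus had a peak within 1 kb of a transcript start in all 5 libraries, as had 26.5% of all genes. Another site, at -926 and -949 bp from the canonical start, had a peak in control 3 and HA-Bcl-xL 3, with 13 fragments each.

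PMEPA1 encodes a membrane protein that sequesters SMAD2 and SMAD3 and is induced by TGF-beta. It lies at 56223448 to 56286592 of chromosome 20 on the minus strand, and the long noncoding gene NKILA overlaps its start on the other strand. Among the 5 H3K4me3 libraries, control 3 alone had a peak within 10 kb, at -4057 bp from the 5′ end, with 3 fragments over a local background of 0.055. That is 1.15 times the floor of the list, and no other of the 63 H3K4me3 peaks at these genes held as few fragments. In the other libraries the nearest peak lay 359555 to 359995 bp away, downstream of the start and beyond the gene.

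CCN2, a secreted matricellular protein formerly called CTGF, and TGFBI, a secreted adhesion protein of the extracellular matrix, had no peak near any start. CCN2 lies at 132269316 to 132272512 of chromosome 6 on the minus strand, within the long noncoding gene LINC01013 on the other strand. TGFBI lies at 135364677 to 135399507 of chromosome 5 on the plus strand. Within 10 kb of any transcript start, neither had an H3K4me3 peak in any library, as was the case for 34.7% of all genes. The nearest H3K4me3 peak to the CCN2 start lay 143633 bp away in HA-Bcl-xL 2 and 323540 to 323714 bp away in the other libraries. For TGFBI it lay 104369 to 104511 bp away in all 5 libraries, so the same distant region was the nearest in each.

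Within 1 kb of the canonical start, ID1 and ID3 had a peak in all 5 libraries, JUNB in 4, TGIF1 in 2 and ID2 in 1, while 22.9% of all genes had one in all 5. The pattern of ID1 and ID3 within 1 kb of the 5′ end was shared by 4288 genes other than each of them, that of JUNB by 868, and that of the 6 members without a peak by 10436. No small group of genes therefore stood out as most like any member.

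Bases under peaks within 2.5 kb were compared between the lines for genes with a peak in all 5 libraries. ID1 had 524, 515 and 288 bases in control 1 to 3 and 354 and 490 in HA-Bcl-xL 2 and 3. Both HA-Bcl-xL libraries fell inside the range of the control libraries. The log2 difference, HA-Bcl-xL minus control after centring each library on its median, was -0.15 (SE 0.425, 95% interval -1.04 to 0.738), with a Benjamini-Hochberg adjusted p of 0.996 by limma. ID3 had 414, 471 and 302 bases in control and 375 and 371 in HA-Bcl-xL libraries, again within the control range. Its log2 difference was -0.18 (SE 0.420, 95% interval -1.06 to 0.702, adjusted p = 0.996 by limma). JUNB had 476, 293 and 172 bases in control and 444 and 316 in HA-Bcl-xL libraries, also within the control range. Its log2 difference was 0.26 (SE 0.421, 95% interval -0.624 to 1.14, adjusted p = 0.996 by limma).

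None of the 3 members passed, and 0.0% of the 5151 genes tested did. By limma 269 of those genes had an unadjusted p under 0.05, or 5.22%, none of them a member. The intervals reach about 1 log2 unit on one side for each member, so a difference of that size lies within them. With equal list lengths the JUNB difference turned to -0.684 and that of ID1 was -0.565. At a -log10 q of at least 5 they were -0.777 and -0.657, and with a 1 kb window that of ID1 was -0.447. None of these passed in the limma fits. ID3 was not tested at the stricter q or with equal list lengths, since within 2.5 kb it then had a peak in 3 control libraries but in 1 HA-Bcl-xL library. With any transcript start counted, TGIF1 entered the fit, with a log2 difference of 0.11 (SE 0.484, adjusted p = 0.997 by limma), and again 0.0% of 5779 genes passed.

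**Figure D3:**
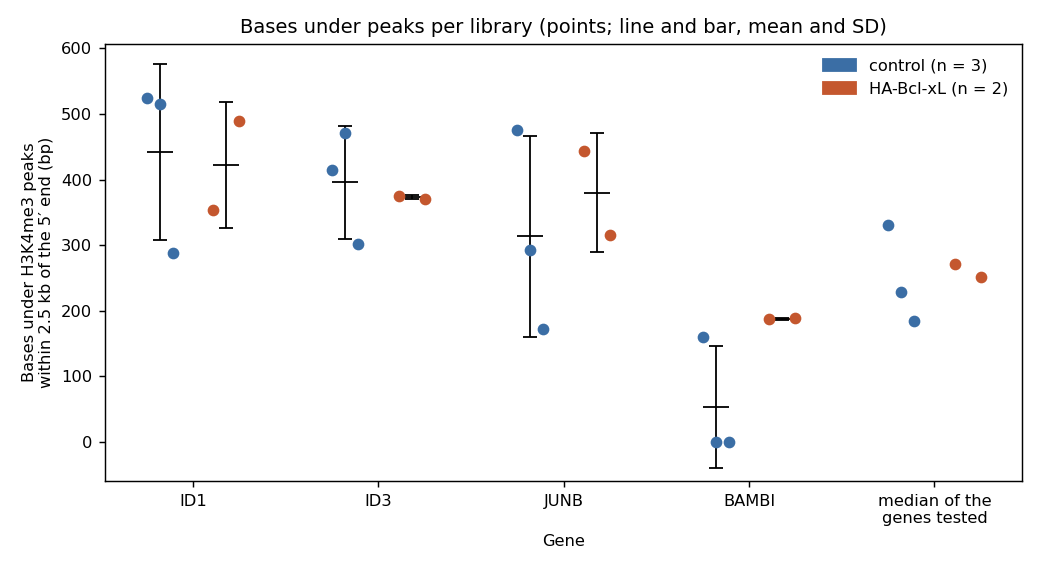
Bases under H3K4me3 peaks within 2.5 kb of the 5′ end, in bp, for 4 genes and as the median of the 5151 genes tested; each point is a library (control in blue, HA-Bcl-xL in orange), with the mean as a line and the SD as a bar. For ID1, ID3 and JUNB the HA-Bcl-xL points lie within the control range, and control 3, at 288, 302 and 172, is the lowest point of each.

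Control 3 had the fewest bases at each of the 3 genes and also over all genes. The median over the 5151 genes was 331, 229 and 184 bases in control 1 to 3 and 272 and 251 in HA-Bcl-xL 2 and 3. ID1 stood at the 68.4 to 93.6 percentile of these genes and ID3 at the 66.6 to 91.4, above the median in every library. JUNB ranged from the 46.0 to the 83.7 percentile.

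Members with and without a promoter peak overlapped in GC content within 1 kb of the 5′ end. It ranged from 54.2% (ID3) to 64.5% (JUNB) among the 3 with a peak and from 50.6% (TGIF1) to 66.8% (BAMBI) among the 6 without a peak there. Over all genes, the share with a peak in all 5 libraries was 2.42% in the decile of lowest GC, 34.8% in the fourth and 9.84% in the highest. Of the members without a peak within 1 kb of the 5′ end, PMEPA1 and TGIF1 lie in the fourth decile and BAMBI in the highest. The TGIF1 values here belong to its most 5′ end, 38564 bp above its canonical start. They do not describe its intronic site with a peak in all 5 libraries. JUNB, marked in 4 libraries, lies in a decile with a share of 16.7%, ID1 in one with 23.3% and ID3 in one with 29.2%. The observed over expected CpG ratio was 0.794 for ID1, 0.719 for JUNB and 0.60 for ID3. Among the members without a peak in that window it was 0.785 for CCN2, 0.814 for ID2 and 0.877 for BAMBI, and lower for TGFBI (0.429), PMEPA1 (0.371) and TGIF1 (0.346).

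**Figure D4:**
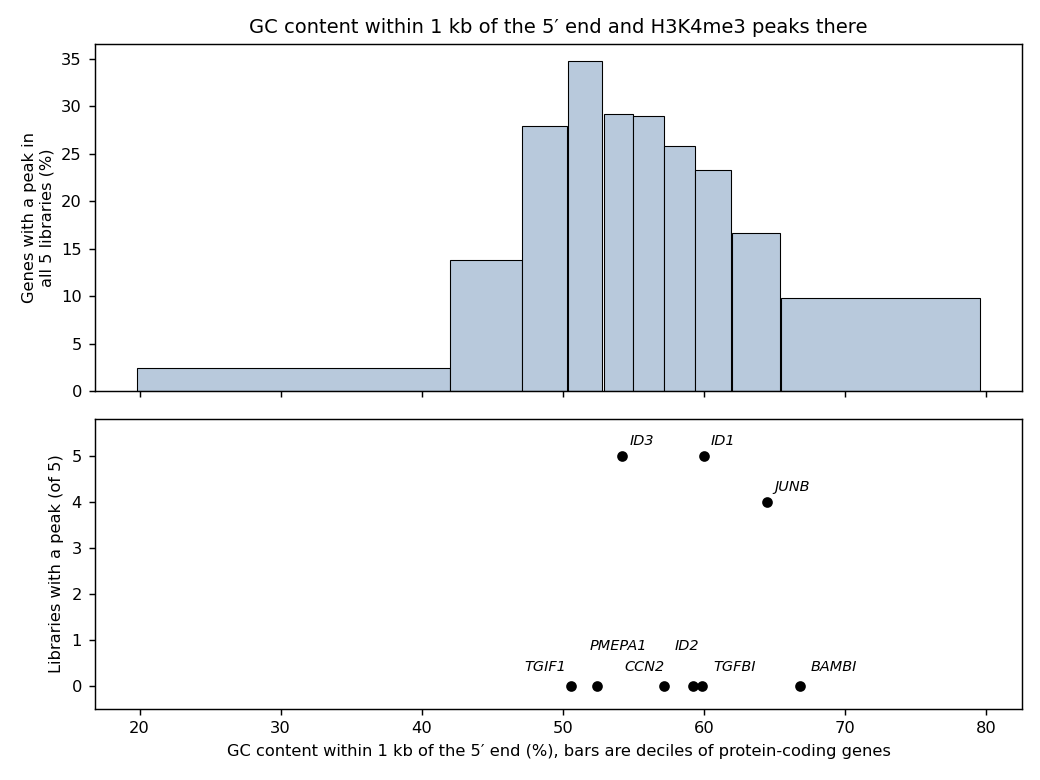
Top, share of genes (%) with a peak within 1 kb in all 5 H3K4me3 libraries for deciles of GC content (%) of all protein-coding genes; bottom, number of libraries with a peak for each of the 9 genes against its GC content. ID3, ID1 and JUNB, from 54.2 to 64.5% GC, lie among genes without a peak within 1 kb of the 5′ end, which range from 50.6 to 66.8%.

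Short motifs of the pathway were counted in the 250 bases before each 5′ end, on both strands. GTCTG, the CAGA box bound by SMAD3 and SMAD4, occurred in CCN2, ID2, ID3 and BAMBI, 4 of 9, against 37.5% of all promoters. GGCGCC, a GC-rich SMAD element, occurred in TGFBI, PMEPA1 and BAMBI, 3 of 9, against 18.0%. The longer composite BMP response element, which contains GTCT, and the AP-1 site TGACTCA occurred in 0 of 9, against 0.278% and 3.35%. GGAATG occurred in CCN2 alone, at 3 places that start at -169, -104 and -95 from the 5′ end, against 11% of all promoters with at least 1 match. CCN2 is a widely used target gene of YAP and TEAD. ID1, JUNB and TGIF1 held none of the 5 motifs in this window or before the canonical start. In the 250 bases before the canonical start, GTCTG occurred in 3 of 9, without ID2, against 35.9% of promoters. GGCGCC occurred there in 2 of 9, without PMEPA1, against 22.1%. The canonical starts of ID2, PMEPA1 and TGIF1 lie 3211, 1521 and 38564 bp from the 5′ end.

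The rest of the pathway was described from lists of other response genes, ligands, receptors and SMADs with their regulators. Of 20 other response genes, 2 had a promoter peak in all 5 libraries, GADD45B, a stress-inducible growth arrest gene, and SNAI2, a repressor of epithelial genes. Another 6 had one in 1 to 4 libraries and 12 in none. Of 9 ligands 0 were marked in all 5 libraries and 4 in some, and of 12 receptors 0 had one in all 5 and 5 in some. Among 9 SMADs and regulators SMAD5, a BMP-responsive SMAD, had one in all 5 and 2 others in some. Within 1 kb the share with a peak in all 5 libraries was below the 21.3% of all genes in each of these lists. Within 2.5 kb it was 3 of 12 receptors, near the 25.6% of all genes: TGFBR2 and the BMP receptors BMPR1A and BMPR2, the latter pair named after their values were seen. In that window it was 1 of 9 ligands, 2 of 20 other response genes and 1 of 9 SMADs and regulators.

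Of these genes, MSX1, a homeobox gene induced by BMP, and TGFBR2, the type II TGF-beta receptor, had a promoter peak in HA-Bcl-xL 2 and 3 but not in control, a pattern of 0.844% of all genes. For MSX1 this was so within 2.5 kb as well, while TGFBR2 then had a peak in 3 of 3 control libraries. No gene of the lists had one in all control and no HA-Bcl-xL library. None of them had an IgG peak within 1 kb of the 5′ end.

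**Figure D5:**
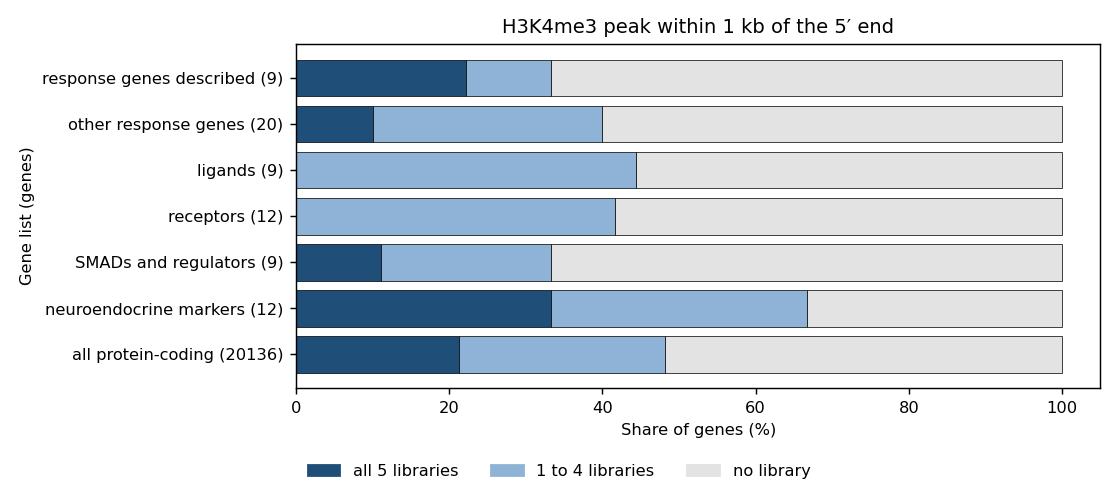
Share of genes (%) by whether a promoter peak was called in all 5 H3K4me3 libraries (dark blue), in 1 to 4 (light blue) and in none (grey), for the 9 response genes, the other lists of the pathway, the neuroendocrine markers and all protein-coding genes. The ligands and receptors have no gene with a promoter peak (1 kb window) in every library, and the 9 response genes have 2, near the share of all genes.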

How the data were processed

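H3K4me3 and IgG CUT&RUN libraries of control and HA-Bcl-xL cells were used. The authors deposited 1 narrowPeak list per library, so peaks were called per library. The submitters' processing notes name bcl2fastq 2.20, Trimmomatic 0.36, Bowtie2 2.2.9, MACS2 2.1.1, deepTools 3.5.1 and hg19, with no role or order; duplicate treatment and control are not given in the sources used here. Each deposited peak has a score, a fold over background, a -log10 p and a -log10 q, and the deposited score was the whole-number part of 10 times the -log10 q. These were used within a list only, to rank or filter its peaks.

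Fragments at the summit and the local background were solved from fold, read as (n + 1) / (background + 1), and a Poisson p. A whole number within 0.001 in -log10 p was found for all 63 member peaks and for 95.9 to 99.97% of peaks per list. The lists give no totals, whether n counts fragments or reads is not recorded, and such numbers cover counting error only. Peaks of the numbered chromosomes, X and Y were joined to GENCODE 44, lifted to GRCh37, the build named as hg19. A gene had a peak with at least 1 bp in its window. Coordinates are 1-based. A site is a set of touching or overlapping H3K4me3 peaks. Sequences and motifs came from GRCh37.

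Bases under peaks were tested with limma 3.58.1 (R 4.3.3) on log2 values, after subtracting each library's median, with p-values adjusted by Benjamini-Hochberg over all genes tested and a threshold of 0.05. The fit was tested on simulated data. Python 3.11.15, pandas 2.3.3, numpy 2.4.6, scipy 1.17.1, pysam 0.24.0 and matplotlib 3.10.9 were used. Counts over members were not tested.

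The members and lists were chosen with earlier results of these data known. All 9 members are named, and of the 4 other pathway lists those genes that differ between all libraries of the lines and up to 4 per list with a peak in all 5. The settings also tried were equal list lengths (10247 peaks), a -log10 q minimum of 5, the summit in the window, 2.5 and 10 kb windows, any transcript start, removal of peaks overlapping IgG peaks, at least 5 fragments, other filters and centring of bases, leaving out each library in turn, and a replicate block. The canonical start, and single members within 2.5 kb at the stricter q or equal list lengths, were added after seeing the data. 1 of 4 endothelial markers was not matched.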

Additional observations from a re-analysis of the deposited data

How the results depend on the processing

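The difference in members with a promoter peak per library, 0.333 (HA-Bcl-xL minus control), went to -0.667 at a -log10 q of at least 5 and with equal list lengths. The number of members with a peak in every H3K4me3 library, 2, was 1 under both settings, where 15.3% and 17.9% of all genes had one, against 21.3% as reported. It was 3 with a 2.5 kb window, a 10 kb window or any transcript start, where 25.6%, 29.7% and 26.5% of all genes had one. With 1 library left out, the difference ranged from 0.0 to 0.5 and the number from 2 to 3, the latter without control replicate 3. The count of members with an IgG peak was 0 in every setting run. JUNB's share of HA-Bcl-xL minus control libraries with a promoter peak, 33.3 percentage points, went to -16.7 at a -log10 q of at least 5 and with equal list lengths.

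Genes with different bases under peaks numbered 0 by limma as reported, 2 with the replicate block, and 0 to 3 with 1 library left out (2 without HA-Bcl-xL replicate 2 and 3 without HA-Bcl-xL replicate 3, where the lone library is assumed to vary like the others). No member tested was called in these fits or in the other settings run. The log2 change of ID3 went to 0.0129 with a 1 kb window. That of JUNB went to -0.684 with equal list lengths and -0.777 at a -log10 q of at least 5. With 1 library left out, ID1 ranged from -0.446 to 0.139, ID3 from -0.364 to -0.00531 and JUNB from 0.0714 to 0.446. With the replicate block, ID1 was -0.235, ID3 -0.364 and JUNB 0.390. These equal the values without control replicate 1, whose number has no HA-Bcl-xL H3K4me3 library here. With the block the SE was 0.516 for each of them, a spread taken as common to all genes. The genes called with the block rest on that common spread. Deviations of same-numbered libraries from their line means had r of 0.005 for number 2 and 0.030 for number 3 over 5151 genes. The deviations of the 2 HA-Bcl-xL libraries mirror each other, so these values cannot decide whether the numbers are pairs. The main fit was set without a replicate block. The cause of these changes was not tested. Peaks rest on few fragments, and a missing peak does not show a missing mark.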
